A study of Mus musculus with 6 samples.

Results

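The genes for 10 Kruppel-like factors (Klf), which promote or restrain the formation of fat cells, were examined in ATAC-seq peak lists of mouse preadipocytes. A Klf locus was the gene body with 30 kb on either side (GRCm38/mm10, GENCODE M21), and a line of a peak list belonged to it when its summit, the point of highest signal, fell inside. The 10 loci held 1545 of the 1797083 summits listed over 6 libraries, and 145 of the 179249 windows (250 bp on either side of a summit) into which the summits were gathered for comparison. The genes were taken in 3 groups, the adipogenic Klf4, Klf5, Klf9 and Klf15 (44 windows), the anti-adipogenic Klf2, Klf3 and Klf7 (47 windows), and Klf6, Klf11 and Klf13 (54 windows), whose part in adipogenesis is less settled.

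The study asked how the loss of HMGN1 and HMGN2, nucleosome-binding proteins that loosen chromatin, affects white preadipocytes. Cells came from inguinal white fat of C57BL/6 mice that were wild type (WT) or double knockout (DKO, lacking Hmgn1 and Hmgn2), so that the loss preceded culture, and were grown on collagen. ATAC-seq, which marks open chromatin by the cuts of the Tn5 transposase, was done on undifferentiated cells (day 0), in 3 libraries of each genotype prepared by the omni-ATAC protocol. The labels do not say whether the 3 libraries of a genotype came from separate mice or cultures, so the p-values measure the spread between these libraries, which may be technical.

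Kruppel-like factors are zinc finger proteins that bind GC-rich and CACCC-type sequences, the same class of site that the Sp proteins use, and act as activators or repressors through the partners they recruit. In cultured preadipocytes, Klf4, Klf5, Klf9 and Klf15 act at successive steps on the way to C/EBP proteins and PPARγ, the master regulator of fat cells. Klf2 and Klf3 are known to hold preadipocytes in the undifferentiated state, Klf2 by repressing Pparg and Klf3 by recruiting the corepressor CtBP, and Klf7 also restrains differentiation.

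The peak lists held between 299433 and 299620 summits per library, close to their limit of 300000, so the genotypes could not be compared by their number of peaks. Read totals were not analysed here. The local background that occurred most often, a measure of depth, lay between 2.41 and 2.58 cut sites in 5 libraries and was 2.05 in DKO replicate 3, and the lowest listed pileup ran from 8 cut sites in that library to 12 in WT replicate 3. A summit is described by its fold enrichment, the pileup of cut sites at the summit over the local background of the same library (1 added to each). The knockout was visible at Hmgn2, where 2 windows were listed in each WT library but never in DKO, while the window with the highest fold enrichment at Hmgn1 was listed in all 6 libraries and gave no check of that allele.

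Cell identity was read from promoter windows, which lie within 1 kb of an annotated start of the gene. Of 9 progenitor markers, 8 had a promoter window, all with a summit in all 6 libraries, and none of 4 markers of mature fat cells (Adipoq, Plin1, Cidec, Lep) had one. The summed fold enrichment of the progenitor markers ranged from 61.4 to 72.9 in WT and from 53.0 to 64.4 in DKO. Among 5 immune markers, 4 had a window but Ptprc had none, Itgam was listed in the 3 DKO libraries alone and Adgre1 in 2 of them alone, and the sum ran from 15.2 to 20.3 in WT and from 18.1 to 25.2 in DKO. Cdh5, an endothelial marker, was likewise listed in the DKO libraries alone, and the sum of the 4 endothelial markers ran from 33.3 to 42.1 in WT and from 33.5 to 40.3 in DKO. In the limma fit used below, where the lowest value of a list stood in for an unlisted window, the log2 change was 1.57 at Itgam (unadjusted p = 0.0016, adjusted p = 0.155). At Cdh5 it was 1.76 (unadjusted p = 0.0007, adjusted p = 0.142). Adgre1 (0.85), Cd68 (0.35) and Kdr (0.19) were also above 0. Other markers of these types had lower fitted values in DKO, namely Pecam1 (log2 change -0.31, unadjusted p = 0.0186, adjusted p = 0.297) and Lyz2 (-0.22, adjusted p = 0.469), whose groups did not overlap after normalization, and Tek (-0.07, adjusted p = 0.856), whose groups did. The sums of the glial markers (1 of 3 with a window) and the smooth muscle markers (2 of 2) ran from 19.4 to 25.4 and from 26.1 to 33.4 in WT, against 15.8 to 19.2 and 23.7 to 28.1 in DKO. The part of such cells in the Klf values was not tested.

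The sequences under the windows on which the results turn are given here from the mm10 genome, plus strand, 5′ to 3′, as the bases up to 100 on either side of the window's centre or, at Klf2, the stretch of them upstream of the first exon. Capitals mark matches to the 7 motifs searched on both strands: AP-1 (TGANTCA), KLF/SP (CCNCNCCC), CRE (TGACGTCA), CEBP (TTGCNNAA), TEAD (GGAATG) and the longer MEF2 and glucocorticoid response element (GRE) palindromes. Matches may overlap, as they do in runs of C or G. The promoters of Klf6 (chr13:5861196-5861396) and Klf2 (chr8:72318929-72319032) are shown because each holds a MEF2 match, that of Klf11 (chr12:24651060-24651260) because it had the smallest p of the windows near a Klf start, and that of Klf4 (chr4:55532946-55533146) for its AP-1 match.
Klf6 promoter: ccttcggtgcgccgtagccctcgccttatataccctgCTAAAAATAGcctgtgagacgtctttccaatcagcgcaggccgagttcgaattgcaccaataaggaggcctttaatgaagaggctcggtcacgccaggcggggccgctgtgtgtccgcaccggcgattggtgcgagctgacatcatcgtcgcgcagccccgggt
Klf2 promoter: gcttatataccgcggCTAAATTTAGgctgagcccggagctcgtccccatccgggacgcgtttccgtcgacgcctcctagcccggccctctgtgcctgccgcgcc
Klf11 promoter: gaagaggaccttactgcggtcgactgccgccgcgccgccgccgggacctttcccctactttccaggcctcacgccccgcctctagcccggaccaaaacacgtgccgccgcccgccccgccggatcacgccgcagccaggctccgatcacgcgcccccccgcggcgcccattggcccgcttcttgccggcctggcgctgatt
Klf4 promoter: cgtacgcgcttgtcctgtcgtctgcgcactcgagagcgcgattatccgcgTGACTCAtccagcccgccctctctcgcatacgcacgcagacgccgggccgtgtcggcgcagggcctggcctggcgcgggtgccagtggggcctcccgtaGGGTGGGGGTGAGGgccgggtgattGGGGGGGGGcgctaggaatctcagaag

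Of the windows away from the Klf promoters, that upstream of Klf6 (chr13:5837461-5837661) is shown as the strongest peak of all 10 loci. Those near Klf9 (chr19:23135061-23135261) and in Klf13 (chr7:63896930-63897130) had the highest mean fold enrichment of their loci, each with a GRE match. The windows in Klf7 (chr1:64078403-64078603) and upstream of Klf3 (chr5:64795939-64796139) had the largest fitted increases of all 145 windows. Those shown for Klf9, Klf13 and Klf7 lie near the start of another gene, 261 bp from 2410080I02Rik, 497 bp from Gm27252 and 151 bp from Gm13748.
Klf6 upstream: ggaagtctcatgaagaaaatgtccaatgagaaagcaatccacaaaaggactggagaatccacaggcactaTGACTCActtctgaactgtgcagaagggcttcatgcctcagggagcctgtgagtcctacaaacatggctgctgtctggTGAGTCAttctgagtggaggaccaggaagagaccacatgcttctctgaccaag
Klf9 upstream: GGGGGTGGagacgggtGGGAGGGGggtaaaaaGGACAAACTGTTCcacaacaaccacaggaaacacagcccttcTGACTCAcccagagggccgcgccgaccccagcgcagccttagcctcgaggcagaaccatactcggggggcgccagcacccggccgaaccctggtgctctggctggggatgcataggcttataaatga
Klf13 intron: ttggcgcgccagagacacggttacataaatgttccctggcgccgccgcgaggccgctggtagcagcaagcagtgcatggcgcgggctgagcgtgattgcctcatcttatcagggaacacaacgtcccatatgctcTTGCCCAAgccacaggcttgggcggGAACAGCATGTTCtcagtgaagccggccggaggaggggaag
Klf7 intron: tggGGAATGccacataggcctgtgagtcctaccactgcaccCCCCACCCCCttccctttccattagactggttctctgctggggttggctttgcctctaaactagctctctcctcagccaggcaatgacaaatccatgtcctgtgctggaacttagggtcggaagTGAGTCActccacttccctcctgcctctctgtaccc
Klf3 upstream: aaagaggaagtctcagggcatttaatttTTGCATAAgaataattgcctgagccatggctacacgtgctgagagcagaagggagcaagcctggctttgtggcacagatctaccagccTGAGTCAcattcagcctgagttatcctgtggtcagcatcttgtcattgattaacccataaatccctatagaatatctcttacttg

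The question of the comparison was whether chromatin at Klf genes differs between WT and DKO preadipocytes before differentiation begins. No window of the 10 loci was called in either direction at an adjusted p under 0.05 (limma on quantile-normalized log2 fold enrichment, two-sided, Benjamini-Hochberg over all 179249 windows). Over all windows 107 were called (0.0597%), 65 lower in DKO (0.0363%) and 42 higher (0.0234%), and 0 of 145 is near this background. The smallest adjusted p in the Klf loci was 0.202. In the same fit, the Hmgn2 windows listed in WT but never in DKO had adjusted p of 0.0312 (log2 change -2.33) and 0.0659 (-2.05). A site missing from every DKO list can therefore fall short of the threshold. At an unadjusted p under 0.05 there were 13 Klf windows (8.97%), against 11.8% of all windows. Of these, 3 were lower in DKO (6.1% of all windows) and 10 higher (5.68% of all windows).

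No Klf window had a summit in all 3 libraries of a genotype and in none of the other, which occurred in 1.23% of all windows for WT and 1.14% for DKO. The normalized values of the 3 WT and 3 DKO libraries did not overlap in 15 Klf windows with higher values in DKO (8.76% of all windows) and in 1 with lower values (7.67% of all windows). Together these 16 windows were 11.03% of the Klf windows, under the 16.4% of all windows.

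The fitted changes of the Klf windows lay above 0 more often than below. Their median log2 change (DKO minus WT) was 0.10, with 96 windows above 0 and 49 below, beside a median of 0.010 over all windows. This depended on the scaling. Without normalization between libraries the median was -0.05 with 56 windows above 0 and 89 below, beside -0.14 over all windows, and on summit pileups it was 0.02 with 75 above 0 and 70 below. The 32 windows within 1 kb of any annotated start had a median of 0.15, beside 0.085 for all 30377 such windows, and the other 113 had a median of 0.098, beside -0.0084. These medians are descriptions of the windows and were not tested.

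**Figure D1:**
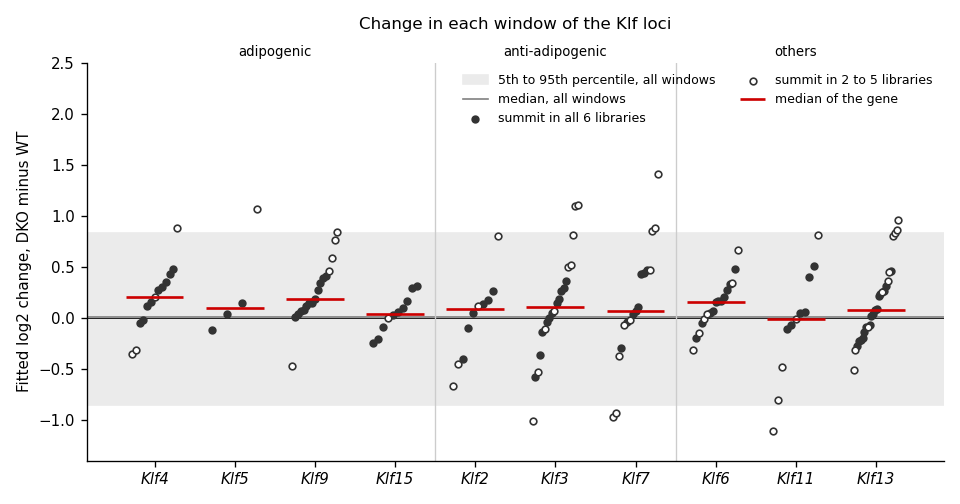
Fitted log2 change (DKO minus WT) of each of the 145 windows, by gene, with filled points for windows with a summit in all 6 libraries, open points for those with a summit in 2 to 5, red bars for the gene medians and a grey band from the 5th to the 95th percentile of all 179249 windows. The medians lie between -0.01 (Klf11) and 0.20 (Klf4), and every point outside the band is open, so each of those windows lacked a summit in at least 1 library.

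By group, the adipogenic loci had a median log2 change of 0.14 (35 windows above 0, 9 below), the anti-adipogenic loci 0.064 (28 above, 19 below) and the remaining loci 0.065 (33 above, 21 below). The adipogenic median was thus 0.079 above the anti-adipogenic one on the log2 scale. The difference turned to -0.11 when the lists were cut to the 50000 best summits and to -0.02 on summit pileups, so the sign of the contrast changed with the processing. Plotted by gene, the changes of every locus spread on both sides of 0 and the groups lay over each other. Among the adipogenic genes, the Klf9 locus had 16 of 17 windows above 0 and a median of 0.18, and Klf4 had 9 of 13 and a median of 0.20. Over the whole genome, 92187 of 179249 windows were above 0. The nearest annotated start was that of Klf9 itself for 3 of the 17 windows.

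The promoters gave the most even view, since each of the 10 genes had a promoter window with a summit in all 6 libraries. Where several windows lay within 1 kb of a start, the one with the highest mean value was taken, without regard to genotype. None was called, and 9 of the 10 had a log2 change above 0 (median 0.27). Of all 30377 windows within 1 kb of a start, 19408 were above 0 (median 0.085). With no scaling, Klf5, Klf7, Klf9 and Klf11 were below 0. An unadjusted p under 0.05 was found in 1 of 10, against 10.8% of all windows within 1 kb of a start. The same window, at Klf6, was the 1 promoter window whose normalized WT and DKO values did not overlap, against 17.5% of all such windows.

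**Figure D2:**
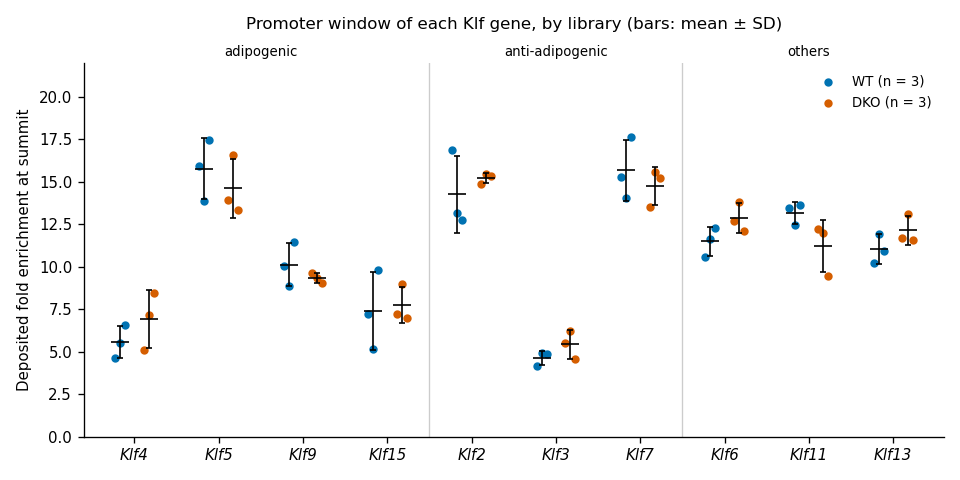
Deposited fold enrichment at the promoter window of each gene in 3 WT (blue) and 3 DKO (orange) libraries, with the mean and SD as black bars. The values run from 4.15 at Klf3 to 17.6 at Klf7, and for 9 genes the WT and DKO points overlap, while at Klf11 the 3 WT points lie above the 3 DKO points.

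Klf4, an early activator that acts with Egr2 on Cebpb, had a promoter window with a low fold enrichment for this family. It lay 580 bp upstream of the start (intergenic) and its fold enrichment was 4.64, 5.52 and 6.54 in the WT libraries, given here and throughout in the order of the replicate numbers, and 5.09, 7.15 and 8.46 in the DKO libraries. The ranges overlapped, with the highest values in DKO replicates 2 and 3, and the log2 change was 0.48 ± 0.24 (SE; adjusted p = 0.457). This was the largest fitted promoter change of the 10 genes on fold enrichment, in a window with an AP-1 match and several KLF/SP matches. On summit pileups it was 0.13, below the 0.32 at Klf13 and 0.30 at Klf3, and with the window nearest to a start it was 0.20, below the 0.51 at Klf11. It was 0.28 without DKO replicate 3 and 0.70 without DKO replicate 1. The pileups of the window, 69, 73 and 124 cut sites in WT and 63, 98 and 81 in DKO, were near those of the Klf5 promoter. Those were 79, 68 and 109 in WT and 80, 85 and 59 in DKO.

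The main peak of the Klf4 locus lay elsewhere, in intergenic sequence 17584 bp from the start on the downstream side, with Gm12507 as the nearest annotated start. Its fold enrichment was 23.8, 20.9 and 26.3 in WT and 22.3, 21.9 and 19.4 in DKO. The change was -0.06 ± 0.084 on the log2 scale (SE; adjusted p = 0.826), and the ranges overlapped. A second distal peak, 9444 bp upstream, was at 15.04, 13.4 and 17.3 in WT and 16.6, 13.3 and 14.8 in DKO. A weak window in a coding exon, 1979 bp into the gene, was not listed in WT replicate 2, was at 2.42 and 2.24 in the other WT libraries and at 2.70, 3.19 and 3.01 in DKO, and had a log2 change of 0.88 (unadjusted p = 0.0398, adjusted p = 0.395).

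Klf5, which C/EBPβ and C/EBPδ induce and which in turn acts on the Pparg promoter, had the sparsest locus, with 4 windows (0.524 per 10 kb, against 2.47 at Klf6). Its strongest window lay at the promoter, 97 bp upstream of the start, where the WT libraries were at 15.9, 13.9 and 17.5 in fold enrichment and the DKO libraries at 13.9, 16.6 and 13.3. The genotypes overlapped, with DKO replicate 3 below every WT value, and the log2 change was 0.04 ± 0.10 (SE; adjusted p = 0.925). The window at 25583 bp from the nearest start, downstream of the gene, was listed in DKO replicates 1 and 2 alone, at 4.75 and 4.25 (log2 change 1.06, adjusted p = 0.437).

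Klf9, a factor of the middle phase of differentiation that is also a known glucocorticoid-responsive gene, had a promoter window 114 bp upstream of its start. The fold enrichment was 10.1, 8.88 and 11.4 in WT and 9.61, 9.33 and 9.02 in DKO, and the log2 change was 0.071 ± 0.12 (SE; adjusted p = 0.851). The DKO values lay inside the WT range. The window 6065 bp upstream was at 9.65, 11.1 and 10.9 in WT and 10.6, 10.02 and 10.2 in DKO, and carried AP-1, KLF/SP and GRE matches within its central bases, as shown above. Its log2 change was 0.14 ± 0.15 (SE; adjusted p = 0.737), and its nearest start belonged to 2410080I02Rik. A window 46859 bp from the start, downstream of the gene, was at 6.64, 5.74 and 8.31 in WT and 7.25, 7.40 and 9.49 in DKO (log2 change 0.41, unadjusted p = 0.0449, adjusted p = 0.41).

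Klf15, which acts late and drives the glucose transporter gene Slc2a4, had a promoter window in its intron, 916 bp past the nearest start. The fold enrichment there was 7.23, 5.18 and 9.78 in WT and 7.22, 8.96 and 6.998 in DKO, so the WT libraries spanned the DKO range, and the log2 change was 0.29 ± 0.17 (SE; adjusted p = 0.471). The window closest to a start gave a change of -0.21 (adjusted p = 0.79), so the direction depended on which start was used. The strongest summit of the locus sat at different places in different libraries, 66516 bp apart at the most, and some of the strong windows lay in introns of the neighbouring gene Aldh1l1. No window of Klf15 had an unadjusted p under 0.05.

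Klf2, the repressor of Pparg that marks undifferentiated cells, had a strong promoter window centred 4 bp before its start. The fold enrichment was 16.9, 13.2 and 12.7 in WT and 14.9, 15.4 and 15.3 in DKO, with the highest value in WT replicate 1 and the DKO libraries close to each other. The log2 change was 0.26 ± 0.16 (SE; adjusted p = 0.48), 0.068 without WT replicate 3 and 0.39 without WT replicate 1. By fold enrichment, the strongest window of the locus lay 23268 bp upstream, at 19.2, 15.4 and 20.2 in WT and 16.97, 17.2 and 20.98 in DKO (log2 change 0.13, adjusted p = 0.685). By pileup the promoter was higher in each library, at 184, 139 and 183 cut sites in WT and 184, 194 and 155 in DKO. The upstream window was at 110, 84 and 144 in WT and 108, 110 and 112 in DKO. No window of Klf2 had an unadjusted p under 0.05.

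Klf3, the partner of CtBP that represses Cebpa, had the promoter window with the lowest mean fold enrichment of the 10 genes. It lay 291 bp upstream of the start, in an intron of the transcript Gm20033, at 4.15, 4.92 and 4.84 in WT and 5.53, 6.20 and 4.54 in DKO (log2 change 0.36 ± 0.23, SE; adjusted p = 0.505). The strongest window, in the intron 2975 bp into the gene, was at 12.3, 12.4 and 10.8 in WT and 11.7, 10.2 and 10.3 in DKO, with a log2 change of 0.043 ± 0.17 (SE; adjusted p = 0.968). This locus held 5 of the 13 Klf windows with an unadjusted p under 0.05, in both directions.

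Of these 5 Klf3 windows, the 2 with lower fitted values in DKO lay past the end of the gene and the 3 with higher values upstream of it or inside it. The window 49221 bp from the nearest start was at 9.03, 7.03 and 12.8 in WT and 4.52, 4.82 and 7.37 in DKO (log2 change -0.58, unadjusted p = 0.0311, adjusted p = 0.363), and that at 35207 bp was at 9.93, 10.8 and 15.5 in WT and 8.39, 9.92 and 6.55 in DKO (-0.36, adjusted p = 0.411). The ranges of the former overlapped, since DKO replicate 3 was above WT replicate 2. In the latter every deposited WT value was above every DKO value, 9.93 against 9.92 at the nearest, while the normalized values overlapped. Between them, a window at 43508 bp was listed in WT replicates 1 and 3 alone, at 4.67 and 5.28 (-1.01, unadjusted p = 0.0626, adjusted p = 0.447). The window 7349 bp upstream, with matches to CEBP and AP-1, was not listed in WT replicate 1, was at 4.27 and 4.70 in the other WT libraries and at 8.39, 5.95 and 4.59 in DKO (log2 change 1.10, unadjusted p = 0.0222, adjusted p = 0.32). Where a library had no summit in a window, the lowest fold enrichment of its whole list stood in, which lay between 1.49 and 1.57. The lists end by p, and a pileup of 10, the lowest listed in WT replicate 2, had a fold enrichment of 3.13 in the Klf7 intron. An unlisted site may therefore have been above the value that stood in, and such log2 changes can be too large in size.

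Klf7, a factor that restrains differentiation and lies in the longest of the loci, had the highest promoter value by mean. The window 192 bp upstream of the nearest start was at 15.3, 14.1 and 17.6 in WT and 13.5, 15.6 and 15.2 in DKO, and the log2 change was 0.062 ± 0.11 (SE; adjusted p = 0.852). The largest fitted change of all Klf windows lay in an intron of Klf7, 42979 bp from its start and 151 bp from the start of Gm13748. It was listed in WT replicate 2 alone of the WT libraries, at 3.13, and at 3.63, 6.95 and 4.92 in DKO. The log2 change was 1.41 ± 0.42 (SE; unadjusted p = 0.0072, adjusted p = 0.202), and the window has TEAD, KLF/SP and AP-1 matches. Another intronic window, 13856 bp from the start, was at 4.09, 3.42 and 5.58 in WT and listed in DKO replicate 2 alone of the DKO libraries, at 3.97 (log2 change -0.94, adjusted p = 0.441).

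Klf6, a repressor of the preadipocyte gene Dlk1, held the strongest peak of all the loci, 23921 bp upstream of its start. Its fold enrichment was 28.3, 26.5 and 32.1 in WT and 27.5, 27.5 and 29.8 in DKO. By p it ranked 72, 62 and 19 in the WT lists and 107, 93 and 23 in the DKO lists, so it was among the strongest of nearly 300000 peaks in every library. It holds 2 AP-1 matches, at positions 71 and 149 of the printed sequence, and its log2 change was 0.05 ± 0.089 (SE; adjusted p = 0.863). A second upstream peak, at 16155 bp, was at 20.1, 18.0 and 21.1 in WT and 18.1, 17.5 and 16.6 in DKO (log2 change -0.05, adjusted p = 0.867).

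At the Klf6 promoter, 186 bp upstream of the start, the fold enrichment was 10.6, 11.6 and 12.3 in WT and 12.7, 13.8 and 12.1 in DKO. The deposited values overlapped by DKO replicate 3 and WT replicate 3, while the normalized values, 10.01, 12.8 and 9.78 in WT and 13.2, 13.9 and 13.6 in DKO, did not. The log2 change was 0.33 ± 0.13 (SE; unadjusted p = 0.0262, adjusted p = 0.342), and was 0.11 on summit pileups and 0.16 with no scaling. A window 31366 bp from the start, past the gene and in an intron of Gm47507, was at 6.17, 7.31 and 7.38 in WT and 7.67, 10.3 and 7.77 in DKO (0.47, unadjusted p = 0.0224, adjusted p = 0.322).

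Klf11, a gene first described as induced by TGFβ, had 2 windows near its start whose fitted changes were of opposite sign. The stronger, in the intron 818 bp past the start, was at 13.4, 12.4 and 13.6 in WT and 12.2, 11.97 and 9.47 in DKO, so every deposited WT value was above every DKO value, but the normalized values overlapped and the log2 change was -0.069 ± 0.12 (SE; adjusted p = 0.866). The weaker, 114 bp upstream of the start, was at 7.03, 6.44 and 6.80 in WT and 7.42, 8.82 and 9.46 in DKO. Here every DKO value was above every WT value, and the log2 change was 0.51 ± 0.17 (SE; unadjusted p = 0.0146, adjusted p = 0.27). The latter holds no match to any of the 7 motifs, which says only that these letters are not in the window. The lowest value at the stronger window and the highest at the weaker were both in DKO replicate 3.

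The Klf11 window with the lowest fitted change of all 145 lay 20831 bp upstream, was at 5.26, 4.55 and 6.46 in WT and at 5.16 in DKO replicate 1, and was not listed in DKO replicates 2 and 3 (log2 change -1.11, unadjusted p = 0.0433, adjusted p = 0.406). Klf11 also had fewer listed summits in DKO, 21, 20 and 21 in WT and 18, 17 and 18 in DKO (exact permutation p = 0.1, the smallest that 3 against 3 libraries can give). The difference of -3 between the means was -0.33 with flanks of 10 kb (exact permutation p = 1) and -0.67 among the 50000 best summits (exact permutation p = 0.4).

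Klf13, a factor that recruits the corepressor Sin3a, had a promoter window 212 bp upstream of its start at 10.2, 11.9 and 10.9 in WT and 11.7, 13.1 and 11.6 in DKO (log2 change 0.31 ± 0.15, SE; adjusted p = 0.453). Its strongest window by fold enrichment lay in an intron, 27840 bp from the nearest Klf13 start and 497 bp from the start of Gm27252, at 18.9, 14.5 and 19.7 in WT and 13.9, 16.04 and 14.99 in DKO. The change there was -0.09 ± 0.10 on the log2 scale (SE; adjusted p = 0.751). Klf13 was the locus with the most windows, 26, and had 41 listed summits in each WT library and 44, 42 and 48 in the DKO libraries (exact permutation p = 0.1, the smallest possible). The difference of 3.67 was 1.67 with flanks of 10 kb (exact permutation p = 0.4) and -1 among the 50000 best summits (exact permutation p = 0.7).

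**Figure D3:**
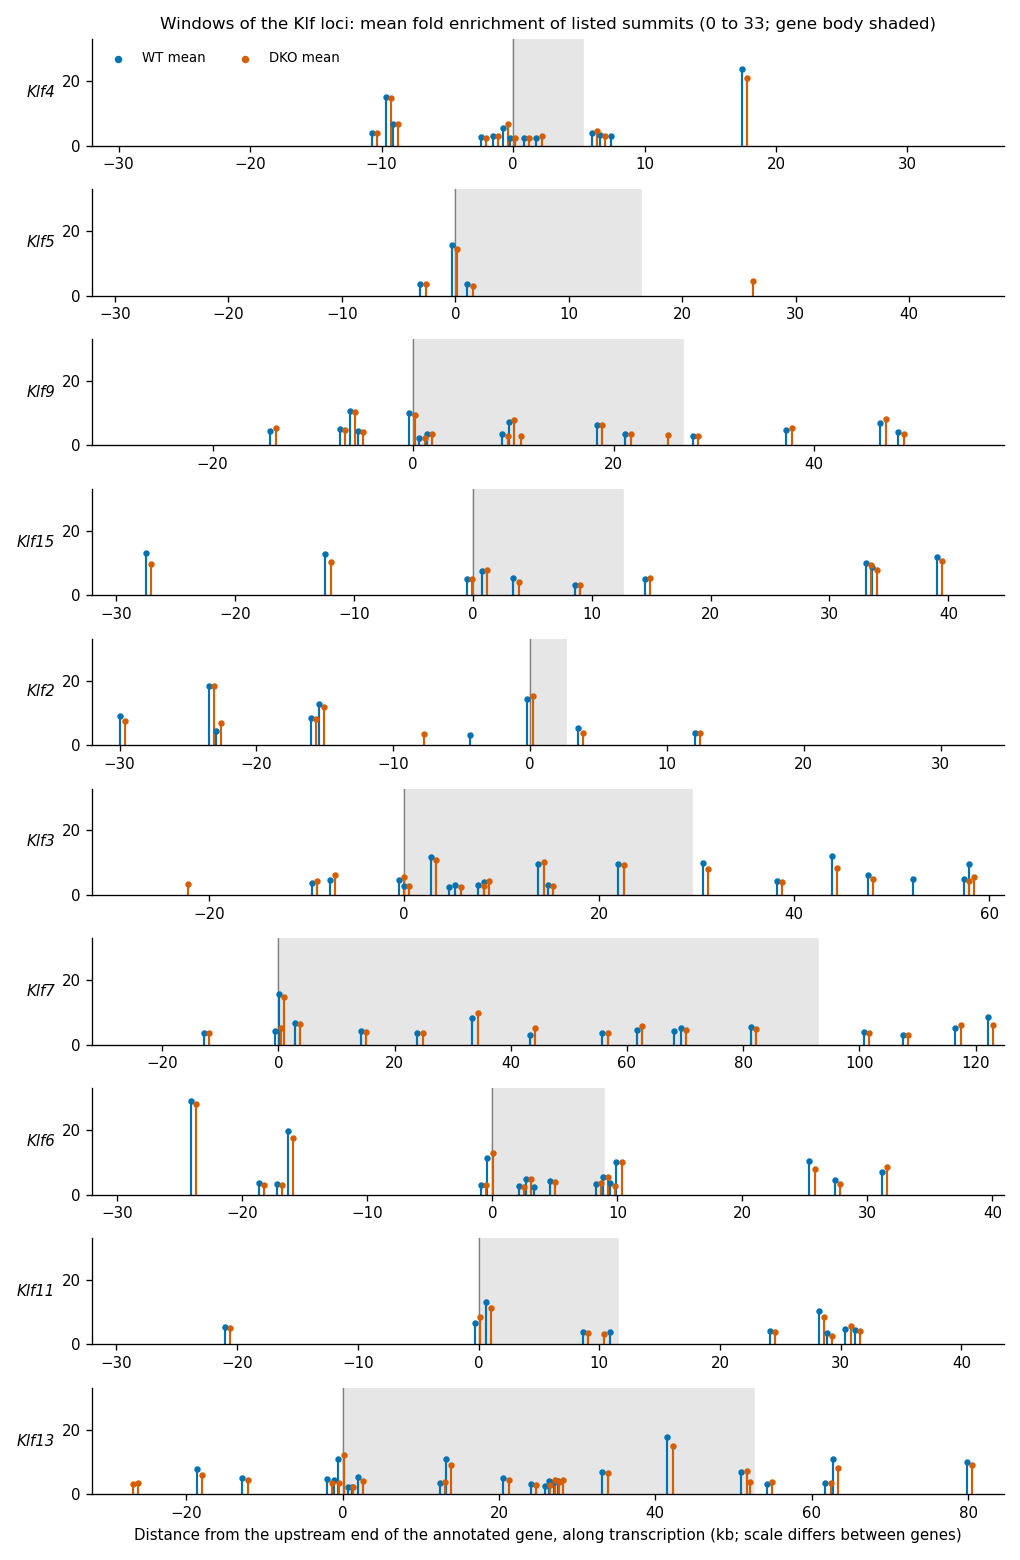
Mean fold enrichment of the windows of each locus (vertical axis, 0 to 33) against distance from the upstream end of the gene along the direction of transcription (kb), for WT (blue, drawn slightly left) and DKO (orange, drawn slightly right), each a mean over the libraries with a listed summit. Klf5 shows 4 windows with its strong peak at the start, while the highest peaks of Klf4 and Klf6 stand away from the gene.

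The maps of the loci show how the signal was laid out. Of the 145 windows 46 were upstream of the gene, 58 in the gene body and 41 downstream, 72 were intergenic, 63 intronic, 7 in untranslated exons and 3 in coding exons. The nearest annotated start belonged to the Klf gene itself for 74 windows, and the other windows can equally be read as part of a neighbouring gene. By fold enrichment, the strongest window was at the Klf gene's own promoter for 3 genes (Klf5, Klf7 and Klf11) and away from it for 7. This depended on the measure. At Klf2, Klf13 and Klf15 the promoter had a higher pileup in each library than the window strongest by fold enrichment. At Klf13, Klf9 and Klf15 the promoter ranked better by p than that window in some libraries and worse in others. In DKO replicate 2 it ranked 2072 against 7831 at Klf13, 10771 against 11866 at Klf9 and 45415 against 72626 at Klf15.

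Compared between loci, the strongest summit was highest at Klf6, where the WT libraries averaged 28.98 ± 2.85 (SD, n = 3) and the DKO libraries 28.3 ± 1.31, and lowest at Klf9, with 10.9 ± 0.728 and 10.3 ± 0.278. For 9 of the 10 genes the mean log2 fold enrichment of the strongest summit was lower in DKO, by 0.03 to 0.29, and for Klf2 it was 0.009 higher. At Klf3 and Klf11 every WT value was above every DKO value (exact permutation p = 0.1 in each, the smallest possible), with a log2 difference of -0.29 at Klf3 and -0.24 at Klf11. The former was -0.14 among the 50000 best summits and -0.16 with flanks of 10 kb, and the latter -0.12 without DKO replicate 3 and 0.012 with flanks of 100 kb. At Klf3 the strongest summit was not at the same place in all libraries, with up to 41185 bp between them. These are deposited values without normalization between libraries, and the median fold enrichment over all windows was itself 5.84, 5.12 and 6.84 in WT and 5.32, 5.57 and 4.98 in DKO.

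**Figure D4:**
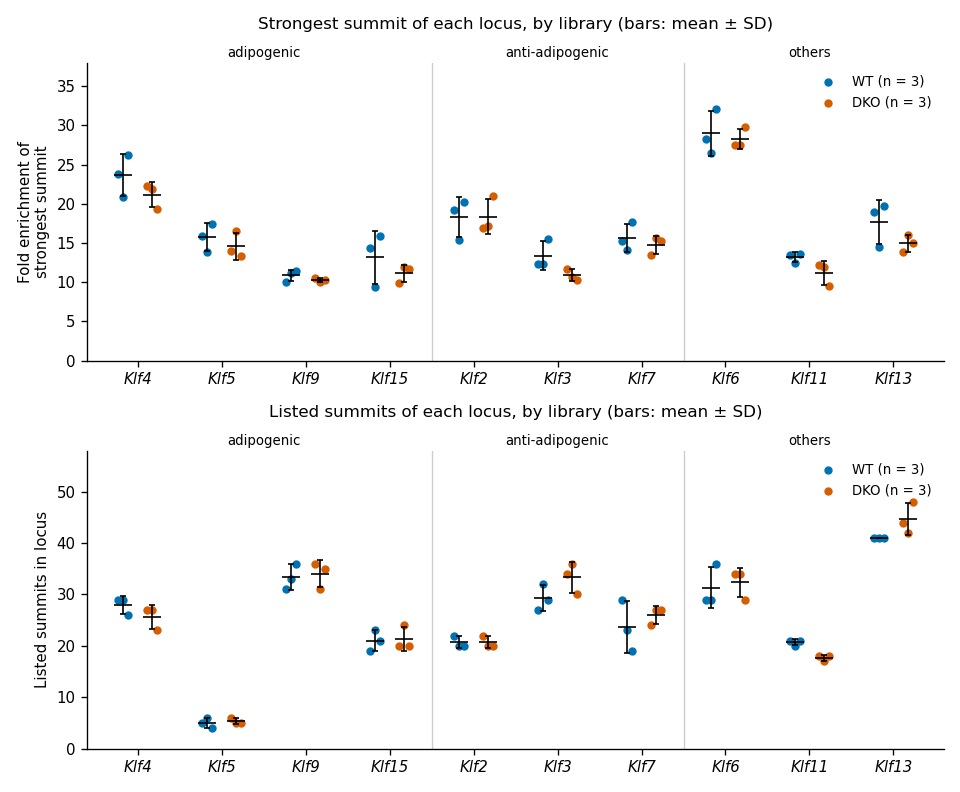
Upper panel, fold enrichment of the strongest listed summit of each locus; lower panel, number of listed summits in each locus; 3 WT (blue) and 3 DKO (orange) libraries, with mean and SD as black bars. Klf6 has the highest summits, from 26.5 to 32.1, and Klf5 has the fewest summits, from 4 to 6.

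Ordered by mean fold enrichment over the 6 libraries, the promoter windows ran Klf7 (15.2), Klf5 (15.2), Klf2 (14.7), Klf11 (12.2), Klf6 (12.2), Klf13 (11.6), Klf9 (9.72), Klf15 (7.56), Klf4 (6.24) and Klf3 (5.03). The ranges of neighbours in this order overlapped in all 9 pairs. Such ranges leave out that both genes of a pair were measured in the same libraries. Compared within each library, Klf9 was above Klf15 in all 6, while the other neighbours changed order between libraries. By fold enrichment, genes of the adipogenic and anti-adipogenic groups stood at both ends. Rank by p gave another order. There the Klf5 promoter lay at 5.68% to 7.05% of the lists, behind Klf9 (2.70% to 4.14%) and Klf7 (0.766% to 1.73%).

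Some sequence features set the Klf windows apart from the rest, as counts and not as a test. KLF/SP matches were in 48 of the 145 windows (33.1%), against 20.8% of all windows, that is in 53.1% against 42.0% within 1 kb of a start and in 27.4% against 16.4% farther away. The median GC content was also higher, 50.7% against 47.8%, and the part of GC content in the KLF/SP share was not tested. AP-1 matches were in 39 Klf windows (26.9%), against 29.97% of all windows.

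MEF2 matches near a start were in 2 of 32 Klf windows (6.25%), the promoters of Klf2 and Klf6, against 2.33% of all windows within 1 kb of a start. GRE matches were in 3 of the 145 Klf windows (2.07%), near Klf9, Klf13 and Klf15, against 0.401% of all windows. CEBP matches were in 16 windows (11.03%, against 12.03%), TEAD matches in 19 (13.1%, against 16.3%) and a CRE match in 1. A match describes the letters and does not show that a factor binds.

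**Figure D5:**
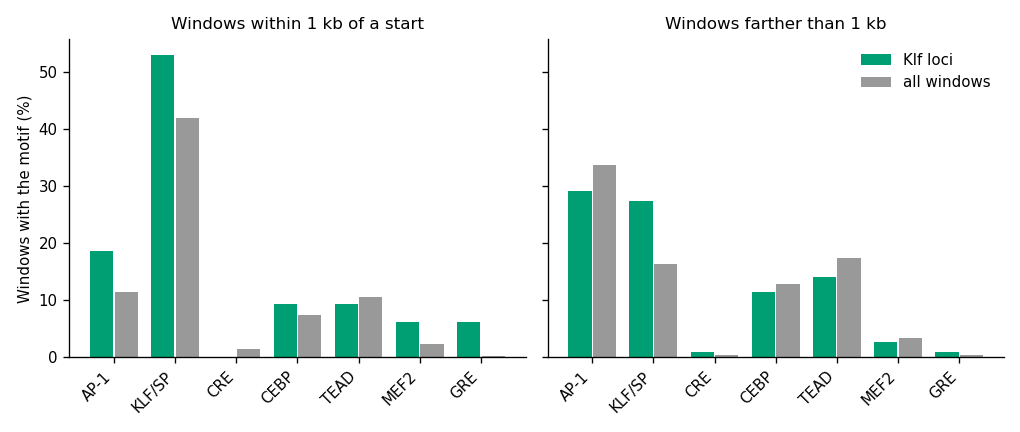
Share of windows (%) that hold each of the 7 motifs within 100 bp of their centre, for the Klf loci (green) and all windows (grey), within 1 kb of an annotated start (left) and farther away (right). The KLF/SP bars of the Klf loci, 53.1% and 27.4%, stand above those of all windows, 42.0% and 16.4%.

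Other genes of the pathway were looked at in the same way, by promoter window. Of 7 further Klf genes, 4 had a promoter window (Klf1, Klf14 and Klf17 had none), none was called and all 4 log2 changes were above 0. Among all 30377 windows within 1 kb of a start, 19408 were above 0 as well. Klf10, also induced by TGFβ, was at 8.21, 9.02 and 9.57 in WT and 10.2, 10.8 and 9.63 in DKO, so each DKO value was above each WT value (log2 change 0.38, unadjusted p = 0.0209, adjusted p = 0.313). Klf12 was listed in 1 WT library, at 4.09, and in DKO at 4.24, 3.61 and 3.77 (0.95, adjusted p = 0.433). Of 9 Sp genes, which bind the same GC-rich sites, 7 had a promoter window and none was called, with log2 changes from -0.32 to 0.21.

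Among 11 partners and targets of Klf proteins, 10 had a promoter window (Ucp1 had none), and none was called. The change with the smallest p was at Ctbp2, which encodes a CtBP corepressor, at 7.23, 9.19 and 10.1 in WT and 10.2, 13.9 and 10.9 in DKO (log2 change 0.58 ± 0.17, SE; unadjusted p = 0.0058, adjusted p = 0.19). Cebpa, a target that Klf3 represses, was at 10.5, 13.4 and 12.8 in WT and 13.6, 14.3 and 14.05 in DKO, with every DKO value above the WT values before normalization (0.37, unadjusted p = 0.0374, adjusted p = 0.388). Pparg was not listed in WT replicate 1 and was at 3.98 and 6.16 in the other WT libraries and 3.35, 4.53 and 3.93 in DKO (0.36, adjusted p = 0.775). Over the 10 windows the median log2 change was 0.21, with 8 above 0 and 2 below. This direction was also that of 19408 of all 30377 windows within 1 kb of a start.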

How the data were processed

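Per the study's methods, the submitters' processing notes and the names of the lists, reads were trimmed (cutadapt 1.18), aligned to mm10 (Bowtie2 2.3.4.3) and freed of duplicates and mitochondrial reads, and the authors called peaks with MACS2 (version not given in the sources used here) in each library. The study states default MACS2 settings, while the names of the lists give a p of 0.01 and a limit of 300000 peaks. The deposited fold enrichment is a ratio of pileup to local background. The lists do not hold the pileup or the background. Both were worked out from the fold enrichment and p under the Poisson model of MACS2, with pileups rounded to whole cut sites. The deposited p-value and q-value are given as −log10. Of the remaining deposited columns, the summit position (other) served to place summits, and the score was not used.

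Windows reached 250 bp to either side of a summit, best ranked first, and were kept if a summit with q below 0.01 fell in them in 2 or more libraries. A window's value was its highest fold enrichment, and the lowest of the list where none was listed. Quantile-normalized log2 values were compared with limma 3.58.1 in R 4.3.3 (eBayes with trend), after the fit was tested on simulated data. Strongest summits and counts of summits were compared by two-sided exact permutation of the 6 libraries. Motifs were searched within 100 bp of a window's centre. Named were all 10 genes with their promoter window, strongest window and counts, and the 5 windows with the smallest unadjusted p in each direction, with further windows chosen after their values were seen. The members, gene lists and motifs were chosen with earlier results of these data known. Precision rests on the 3 libraries of each genotype, since read totals were not analysed here. Alternatives were other scalings, filters, flanks, a replicate block and leaving out each library.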

Additional observations from a re-analysis of the deposited data

How the results depend on the processing

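No Klf window was called in either direction under any of the 16 alternatives, which include leaving out each library in turn. The median log2 change of the Klf windows was 0.10 and ranged from 0.081 to 0.16 without a library, but was -0.050 with no scaling. The adipogenic minus anti-adipogenic difference of 0.079 ranged from 0.020 to 0.11 without a library. Libraries with the same replicate number did not deviate together (correlations of 0.0054, -0.011 and -0.0071), and the numbers were not treated as pairs. Whether such libraries were prepared together cannot be told from this. A replicate block left 0 Klf windows called and the median at 0.10, and the number of windows called genome-wide went from 107 to 0. Genome-wide calls ran from 0 to 6 without a library and were 26 with no scaling, 75 on pileups, 244 with median centring, 771 for the 50000 best summits, 910 when every library had to have a summit, and 4136 without the trend, where the smallest adjusted p of a Klf window was 0.0574.

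Some small changes turned sign, none of them past the threshold before or after. With no scaling the promoter changes were -0.11 (Klf5), -0.081 (Klf7) and -0.11 (Klf9), and on pileups -0.097 (Klf7). Without a library they ranged from -0.023 to 0.083 for Klf5 (below 0 without DKO replicate 2) and from -0.16 to 0.00011 for Klf11 (above 0 without DKO replicate 3). With the promoter window nearest to a start, an alternative chosen after seeing the data like that of windows nearest to the member's own start (median 0.14), they were 0.51 (Klf11) and -0.21 (Klf15). For the strongest summit, the log2 differences were -0.063 (Klf2), 0.012 (Klf11) and 0.058 (Klf13) with 100 kb flanks, 0.16 (Klf6) and 0.029 (Klf15) with 10 kb flanks, and 0.073 (Klf5) and 0.024 (Klf15) by rank of p, and without a library they ranged from -0.11 to 0.087 (Klf2), -0.094 to 0.043 (Klf6) and -0.16 to 0.0075 (Klf7). For listed summits, the differences were 0.667 (Klf4) and -1 (Klf13) among the 50000 best and -1.67 (Klf6) with 10 kb flanks, and without a library ranged from -0.167 to 0.833 (Klf5), -0.167 to 3.33 (Klf6), -0.5 to 2.17 (Klf9) and -1 to 1.33 (Klf15). The cause was not tested. Of 390 alternative values 360 were counted as the same and 29 as reversed in sign. For the median of the Klf windows and the group contrast, the same meant within the spread between libraries. The sign changes of the contrast are therefore among the 360. For promoter windows, strongest summits and listed summits, a value counted as the same if it did not turn sign, whatever its size, since none passed the threshold. The listed summits of Klf2 differed by 0 in the main setting, so no alternative could count as reversed there. Lists that end at different pileups limit what weak windows can show: a window without a summit was under the limit of its list, not closed.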
